A study of Mus musculus with 12 samples.

Results

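The cytosolic ribosomal protein genes were followed across the lumbar spinal cord of 12 mice. Members were the protein-coding genes with a symbol of Rpl or Rps and a number, which may be followed by a single letter (a, x, l, y or p) and further digits, together with Rpsa. Pseudogenes and the Rps6k kinases were left out. The rule found 79 of 33906 gene identifiers, 32 of the small subunit and 47 of the large subunit, on 19 chromosomes. The set held 5 paralogs (Rpl3l, Rpl7l1, Rpl22l1, Rpl39l and Rps27l) and 74 other genes. The rule does not take the stalk proteins Rplp0, Rplp1 and Rplp2, nor a few others such as Rpl36al, Fau and Rack1, which are described as a list of their own.

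There were 4 groups of 3 mice. H1, H2 and H4 were healthy wild-type mice (group H). The remaining groups were of a mouse model of amyotrophic lateral sclerosis (ALS), a disease in which motor neurons degenerate. The strain and transgene of the model, and the age and sex of the mice, are not given in the sources read for this work. P66, P67 and P74 (group P) were fed phosphate-buffered saline. C79, C84 and C85 (group C) were treated with manganese-doped carbon dots, particles that act like an enzyme (a nanozyme), in this case like superoxide dismutase. Group E (E75, E77 and E90) was read as the edaravone group by elimination, since the series text lists a code E but describes this radical scavenger, an ALS drug, under a code D. The number in each name is that of the mouse.

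Each library was made from poly(A) RNA of a separate mouse and held 16.8 to 19.8 M reads, as worked out from the deposited FPKM values (reads or fragments per kilobase of exon, scaled to a library total). In every library these reads exceeded the total by which its FPKM values were scaled, 15.5 to 18.4 M over the libraries, and the reason is not known. C85 had the fewest and C84 the most in both measures. Replicates within a group were distinct libraries, with a correlation across genes of 0.967 to 0.993. H1 stood apart in its skeletal muscle markers, whose summed level was 2545 FPKM there against 46.7 to 335 FPKM in the other 11 libraries. The tissue label was checked against its markers. None of the listed markers of neurons, motor neurons, oligodendrocytes or astrocytes was at 0 in any library.

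A cytosolic ribosome is built from ribosomal RNA and ribosomal proteins, nearly all present in a copy each, so cells make the proteins of both subunits in matched amounts. The mRNAs of most of these proteins start with a C followed by a run of pyrimidines, the terminal oligopyrimidine or TOP motif, through which mTORC1 and the RNA-binding protein Larp1 control their translation. In neurons, ribosomes also serve local protein synthesis in dendrites and axons, and in the cord these mRNAs are made by neurons and glia alike. In bulk tissue, fewer cells of a type and less RNA per cell cannot be told apart.

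The starts of a few genes show this motif and its absence. The windows below hold 15 bases on either side of the RefSeq start site (GRCm38.p6), 5′ to 3′ on the strand of the gene. Capitals mark a run of at least 5 pyrimidines, counted from a C within 3 bases of the start. The base before that C was not checked, so the pyrimidines may begin further upstream, as in Rpl27a. Rps27, Rpl27a and Rps6 are shown for their runs, Rpl5 and Rps4x as genes without one that departed from the other members in H2 and H4, and Rpl3l as the muscle paralog. Rpl38, which is not shown, has a run and departed from the other members in H2 and H4 too.
Rps27, chr3:90213634-90213663, minus strand: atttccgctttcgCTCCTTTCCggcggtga
Rpl27a, chr7:109519180-109519209, plus strand: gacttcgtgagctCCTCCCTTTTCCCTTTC
Rps6, chr4:86857353-86857382, minus strand: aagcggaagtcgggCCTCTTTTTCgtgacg
Rpl5, chr5:107900513-107900542, plus strand: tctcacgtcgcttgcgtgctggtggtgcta
Rps4x, chrX:102189377-102189406, minus strand: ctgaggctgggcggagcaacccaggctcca
Rpl3l, chr17:24727811-24727840, plus strand: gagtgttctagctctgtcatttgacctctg

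Of the 79 members, 60 had a promoter in the RefSeq table. Such a run was found in 24 of the 60, or 40%, against 13.5% of the 27025 genes of the table. With the run allowed within 1 base of the start the shares were 30% and 7.51%, and within 5 bases 46.7% and 21.2%. The letters CCGGAAG, searched on both strands from 250 bases before to 50 bases after the start, were in 41.7% of the members' windows and 9.93% of all. The GC box letters GGGCGG were in 60% against 38.2%, and TATAAA in 10% against 15.7%. An annotated start a few bases off hides a run, and a missing match says only that these letters are not in this window.

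All 79 members were listed above 0 in at least 9 libraries, and 65 had a mean of at least 20 FPKM. The most abundant per length were Rps3a1, a small-subunit protein, at a mean of 353 FPKM over the 12 libraries, Rps15 of the small subunit at 276 FPKM, and Rpl8 of the large subunit at 243 FPKM. They were followed by Rpl4 and Rpl17, which line the exit tunnel of the nascent chain, at 239 and 196 FPKM, and by Rps6, the substrate of the S6 kinases, at 183 FPKM. The lowest were Rpl39l at 0.135 FPKM, Rpl24 at 0.504 FPKM and Rpl35 at 0.929 FPKM. These levels depend on how reads of near-identical copies were counted. Of the 79 members, 76 shared at least 1 stretch of 50 coding bases with transcripts of other genes, 27 shared all of them, and the median share was 90.1%. It was 100% in Rpl24 and 91.6% in Rpl35, whose low levels are uncertain. Over 78 members the mean level (log2) had a correlation of -0.07 with this share. Rpl24 also overlaps Gm28037 on its own strand, and for each member the level may hold reads of its pseudogenes.

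The filter on low values left 78 members for testing and set aside Rpl39l, which was listed at 0 in H1, H2 and E77 and reached 0.419 FPKM in P66. Filter and test cover 18119 genes in all. A fold change here is a difference of log2(FPKM + 1), and a gene passed at an adjusted p under 0.05 in limma.

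The members were high or low together in a mouse, and mice of the same group differed. Their share of the FPKM of all genes was 1.45% in H1, 1.89% in H2 and 2.06% in H4. It was 1.70% in P66, 1.81% in P67 and 1.61% in P74. It was 2.41% in C79, 1.78% in C84 and 2.63% in C85, and in group E it was 1.99% in E75, 1.63% in E77 and 1.74% in E90. The saline mice and 2 of the E mice thus lay close together, while the healthy mice and the mice given carbon dots each spanned a wide range. C84 lay within the range of the saline mice, and H1 lay below all 11 others.

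**Figure D1:**
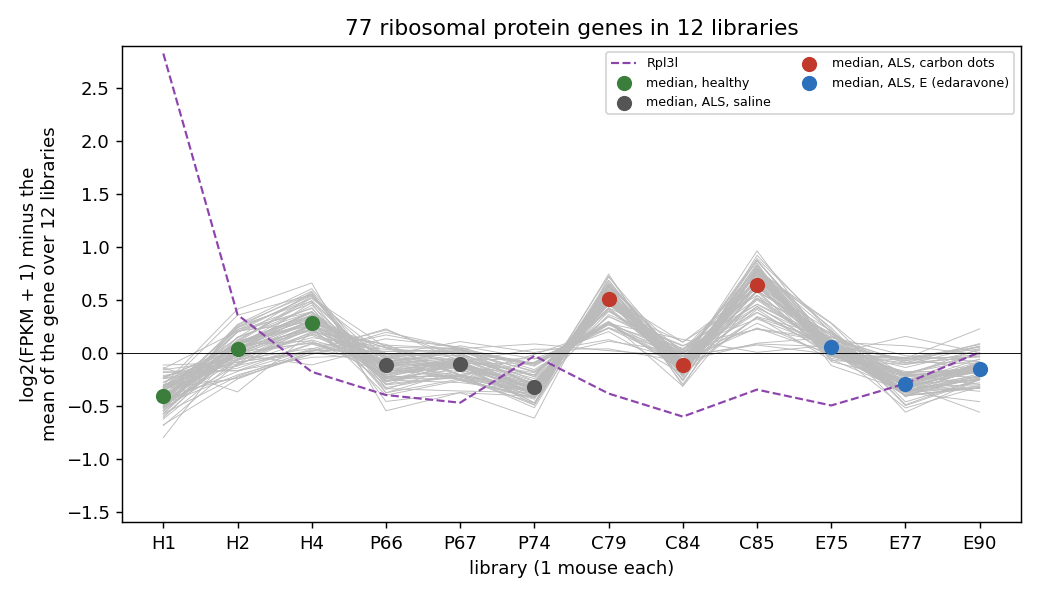
Level of 77 of the 78 tested ribosomal protein genes in each of the 12 libraries, as log2(FPKM + 1) minus that gene's mean over the libraries (vertical axis), with 1 grey line per gene and 1 point per library for the median of all 78. The grey lines run together: C79 and C85 are high, H1, P74 and E77 are low, C84 lies with the saline mice, and Rpl3l (dashed) departs from the rest.

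The same mice were high for nearly every member. C85 was the highest of all 12 libraries for 71 of the 79 members and C79 for another 4. H1 was the lowest for 52, E77 for 10 and P74 for 6. C84 was the lowest of the 3 carbon dot mice in 78 members. In 72 members C79 and C85 both lay above every saline and E mouse, and in 72 members C84 lay within the range of those 6 mice. H1 was the lowest and H4 the highest healthy mouse in 75 members. E75 was the highest E mouse in 69, and P74 the lowest saline mouse in 64.

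Both subunits showed this. The median small-subunit member, on the log2(FPKM + 1) scale, was at 5.43 in H1, 5.94 in H2 and 6.22 in H4, and at 6.41 in C79, 5.77 in C84 and 6.61 in C85. For the large subunit these medians were 5.35, 5.80 and 6.08 in the healthy mice and 6.21, 5.61 and 6.33 in the carbon dot mice. The median over all tested members was 5.82 ± 0.42 in H, 5.62 ± 0.11 in P, 6.16 ± 0.42 in C and 5.64 ± 0.15 in E (mean ± SD of 3 libraries). The difference between C and P was somewhat larger than the SD within C, and the groups overlapped, since C84 was below P67. From the lowest to the highest library the median member differed by 2.21-fold.

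Rps27, a zinc-finger protein of the small subunit (chr3:90212522-90213651, ENSMUSG00000090733), followed the others most closely. Its level was 16.7, 25.2 and 32.1 FPKM in H1, H2 and H4 and 21.9, 23.2 and 19.3 FPKM in P66, P67 and P74. In C79, C84 and C85 it was 38.8, 22.7 and 44.2 FPKM, and in E75, E77 and E90 it was 26.2, 18.9 and 20.9 FPKM. C79 and C85 lay above every other library, and C84 lay among the saline mice. Over the 12 libraries Rps27 correlated with the mean of the other members at 0.996. The median of this correlation was 0.966, and 56 of 78 members were over 0.9. These correlations are descriptions, since the libraries share 4 groups and each column shares a library scaling.

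The lowest correlations were those of Rpl3l (-0.43), the paralog of Rpl3 made in heart and skeletal muscle, Rpl7l1 (0.11), a paralog of Rpl7, Rpl13a (0.37), which also acts in a complex that silences inflammatory mRNAs, and Rpl35 (0.56). Rpl7l1 was nearly level, from 13.1 FPKM in H1 to 18.01 FPKM in E77. Rpl13a and Rpl35 were low, from 1.61 to 2.30 FPKM and from 0.650 to 1.26 FPKM over the 12 libraries. Reads of Rpl35 cannot be told apart from those of Arpc5l and Wdr38, which overlap it on the other strand, where the counting ignored strand. Rpl13a overlaps Gm45713 on its own strand.

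**Figure D2:**
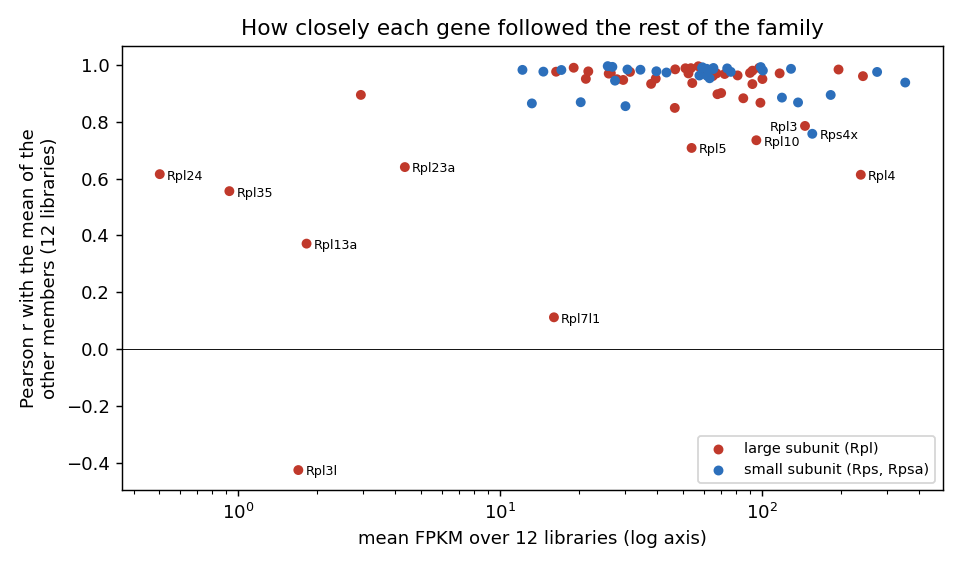
Pearson correlation of each tested member with the mean of the other members over 12 libraries (vertical axis) against its mean FPKM on a log axis, with large-subunit genes in red and small-subunit genes in blue. The 56 members above 0.9 all have a mean of more than 5 FPKM, and the named points (below 0.8) include the paralogs Rpl3l and Rpl7l1 and the weakly measured Rpl13a, Rpl24 and Rpl35.

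In the disease model against healthy mice (P against H), no ribosomal protein gene passed, and most had values somewhat lower in the saline mice. 0 of 78 members passed in limma, where 15.5% of all genes tested did, and the smallest adjusted p of a member was 0.0844. At an unadjusted p under 0.05 there was 1 higher and 3 lower member, against 32.7% of all genes in either direction. limma-voom on reads called 0. The log2 fold change was negative in 58 members and positive in 20, with a median of -0.15, while the median of all genes was 0.07. By role, the small subunit had a median of -0.16 and the large subunit one of -0.13. Among 18 genes mutated in Diamond-Blackfan anaemia, an inherited failure of red cell production, the median was -0.21. The sign of the members' median rested on the healthy mice: it was 0.02 without H4 and -0.36 without H1.

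Rpl3l and Rpl36 were among the 3 lowest members in P against H. Rpl36, a large-subunit protein (chr17:56613416-56614243, ENSMUSG00000057863), was at 69.2, 115 and 136 FPKM in the healthy and 58.4, 65.9 and 55.6 FPKM in the saline mice. The groups did not overlap, although H1 lay close to P67, and the log2 fold change was -0.77 ± 0.28 (SE, adjusted p = 0.0844 in limma). Without H1 Rpl36 passed at -1.05 (adjusted p = 0.0314), and over all alternatives without an added covariate it passed in that fit alone. Rpl36 and Rpl29 were among the 3 members whose saline values all lay below the healthy ones, against 8.88% of all genes.

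The 3 highest members in P against H were Rpl10, Rpl5 and Rps4x. Rpl10, which joins the large subunit late in its maturation (chrX:74270812-74273135, ENSMUSG00000008682), was at 58.1, 78.7 and 94.6 FPKM in H1, H2 and H4 and at 105, 96.3 and 79.8 FPKM in P66, P67 and P74. The groups overlapped (0.30 ± 0.18, adjusted p = 0.265). Rpl5, which with Rpl11 carries the 5S ribosomal RNA into the large subunit, was at 40.0, 45.4 and 52.9 FPKM in the healthy and 61.2, 55.1 and 49.5 FPKM in the saline mice (0.26 ± 0.14, adjusted p = 0.233). Rps4x, an X-linked small-subunit protein, was at 110, 133 and 153 FPKM and at 169, 160 and 138 FPKM (0.25 ± 0.14, adjusted p = 0.262). In each of these 3 genes P74 lay below H4, and H1 was the lowest of the 6 mice. Rpl4 and Rpl7l1 were the 2 members whose saline values all lay above the healthy ones, against 26.4% of all genes. Rpl4 was at 211, 212 and 231 FPKM in the healthy and 235, 256 and 239 FPKM in the saline mice.

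**Figure D3:**
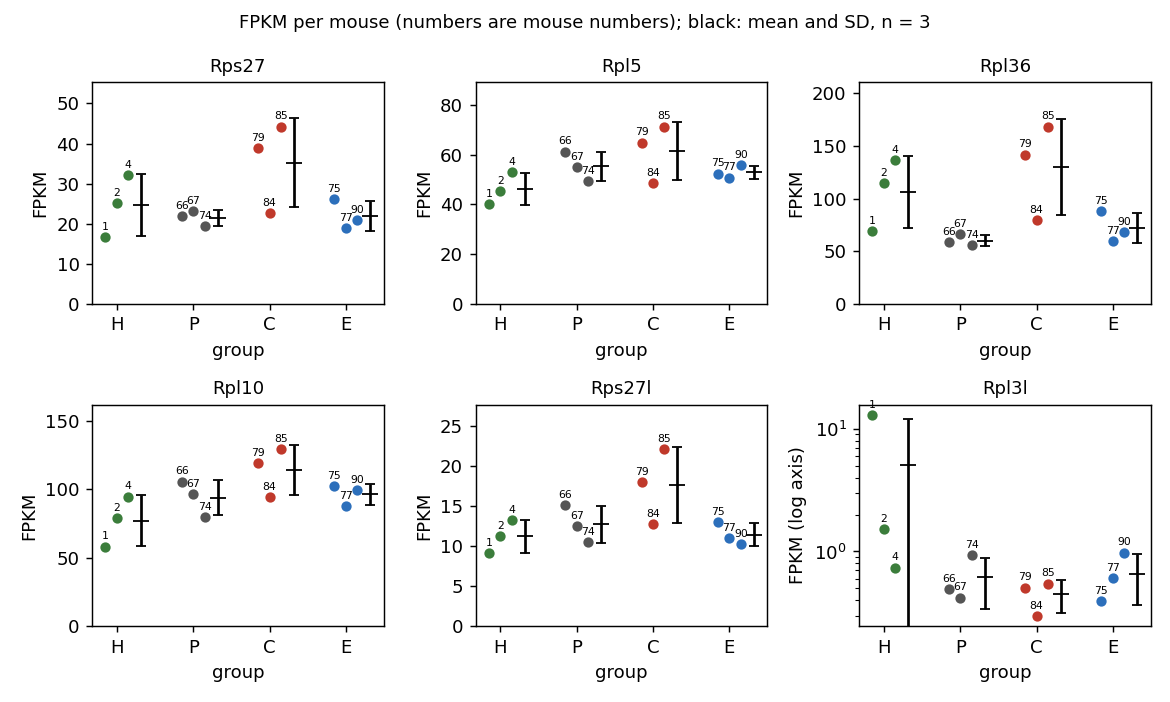
FPKM of 6 members in each mouse (points, labelled by mouse number) by group, with the mean and SD of 3 mice in black. The Rpl3l panel has a log axis, and its SD bar for H runs off the lower edge because H1 alone is high. Rps27 shows the pattern of the family, Rpl36 has its lowest group mean in P, with H1 close to the saline mice, and Rpl5 and Rpl10 are lowest in H1.

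The comparison of the carbon dot mice with the saline mice (C against P) asks what the particle changed in the model. Nearly every member had a higher mean in C, but none passed, also with any 1 mouse left out, and C84 lay with the saline mice. 0 of 78 passed in limma, as 0.00552% of all genes did, and the smallest adjusted p of a member was 0.395. limma-voom called 0. At an unadjusted p under 0.05 there were 53 higher and 0 lower members, against 9.95% of all genes. The members move together, so these 53 are not separate observations. The log2 fold change was positive in 75 members and negative in 3, with a median of 0.53 against -0.02 for all genes. All 32 small-subunit members and 43 of 46 large-subunit members were positive (medians 0.58 and 0.50). In 28 members every carbon dot mouse lay above every saline mouse, where 8.33% of all genes did so, and in 0 members every one lay below (8.77% of all genes). These 28 are not separate observations either. The median 95% interval of a member reached 0.47 to either side, against 0.25 for all genes.

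Rpl36 and Rps19 were among the 3 members of largest difference. Rpl36 was at 142, 79.9 and 168 FPKM in C79, C84 and C85, all above the saline mice (1.04 ± 0.28, adjusted p = 0.395). Rps19, the gene most often mutated in Diamond-Blackfan anaemia, was at 23.4, 11.6 and 26.9 FPKM against 10.7, 10.5 and 10.4 FPKM in P66, P67 and P74 (0.83 ± 0.32, adjusted p = 0.433). Here C84 exceeded the saline mice only narrowly. The 3 members with a negative value were Rpl3l (-0.15 ± 0.59), Rpl7l1 (-0.05 ± 0.08) and Rpl13a (-0.04 ± 0.11), those of lowest correlation with the family. That correlation holds the C and P libraries too, so it is not a separate observation.

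The members chosen for their roles lay along the same line. Rps3, which forms the entry of the mRNA channel, had 82.7, 54.2 and 91.2 FPKM in C79, C84 and C85 against 47.9, 53.04 and 44.4 FPKM in the saline mice (0.61 ± 0.22, adjusted p = 0.419). Rps27a, made as a fusion with ubiquitin, had 101.2, 54.1 and 104 FPKM against 52.8, 56.0 and 47.4 FPKM (0.66 ± 0.27, adjusted p = 0.457). C84 lay below P67 for Rps27a and just above it for Rps3. Rpsa, also known as a laminin receptor, had 143, 122 and 149 FPKM against 110, 120 and 109 FPKM (0.28 ± 0.11, adjusted p = 0.447). Rpl11 differed by 0.48 ± 0.20 and its 5S partner Rpl5 by 0.14 ± 0.14, and Rps6 by 0.16 ± 0.15. In the exit tunnel Rpl39 differed by 0.65 ± 0.29, Rpl17 by 0.42 ± 0.19 and Rpl4 by 0.07 ± 0.10. Members of the same structure thus had unequal values, all positive and none past the test.

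The median for C against P was 0.76 without C84, 0.38 without C85 and 0.46 without C79. A score of 8 Hox genes that mark the caudal cord also differed between the libraries: it was 1.51 in C79, 0.61 in C84 and 1.41 in C85, and 0.96, 2.33 and 2.82 in P66, P67 and P74. C84 and P74 were each the lowest of their group for most members, while the score was lowest in C84 but highest in P74. The 8 genes of the score summed to 10.03 to 44.0 FPKM in C and 23.7 to 81.4 FPKM in P, and Hoxa11, Hoxc11, Hoxc12, Hoxc13, Hoxd10 and Hoxd11 were each at 0 in at least 1 library. With this score as a covariate the members' median was 0.45, and with trends on exon length and GC content removed it was 0.47. Of the cell type markers, 2 lists had sums that did not overlap. The 8 oligodendrocyte markers summed to 4839 to 5250 FPKM in C and 4322 to 4660 FPKM in P (median log2 fold change 0.18), and the 6 endothelial markers to 57.9 to 65.5 FPKM and 47.4 to 52.0 FPKM (0.16). The sums of the other lists overlapped, as for the 13 microglial markers with 731 to 955 FPKM in C and 562 to 1230 FPKM in P. No marker of these 3 lists passed in C against P or was at 0 in any library. The part of these cells in the members' values was not tested.

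In the E mice against the saline mice (E against P) the members were almost level, with no member past the test in limma or limma-voom, as 0.0% of all genes in limma. At an unadjusted p under 0.05 there were 0 members, against 4.91% of all genes. The median log2 fold change was 0.06 against 0.01 for all genes (-0.03 without E75 and -0.01 without P74), with 63 members positive and 15 negative. The smallest adjusted p was 0.998. Rpl27 (0.34 ± 0.28) and Rpl36 (0.24 ± 0.28) were among the 3 largest values. The lowest were Rps27l (-0.13 ± 0.19), Rps29 (-0.09 ± 0.28) and Rpl13a (-0.07 ± 0.11). Rpl27 and Rpl24 lay above all saline mice in every E mouse, against 4.81% of all genes, and 0 members lay below all of them (4.2% of all genes). C against P and E against P share the saline mice, so the direct comparison is C against E. There 0 of 78 passed in either tool (0.171% of all genes in limma), 33 were higher at an unadjusted p under 0.05 (11.0% of all genes in either direction), and the median was 0.48 against -0.02 for all genes. Since the members move together, these 33 are not separate observations. In 0 members every carbon dot mouse lay above every E mouse, where 6.61% of all genes did so, and in 0 every one lay below (10.3% of all genes). Rpl36 (0.80 ± 0.28, adjusted p = 0.35) and Rpl21 (0.71 ± 0.26, adjusted p = 0.367) were among the 3 largest values. Rpl3l (-0.18 ± 0.59), Rpl7l1 (-0.03 ± 0.08) and Rpl35 (0.02 ± 0.11) had the smallest.

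Other markers moved between C and E. The caudal Hox score was 0.61 to 1.51 in C and 2.49, 2.92 and 3.00 in E75, E77 and E90, with no overlap, and Hoxc12 was lower in C (-2.15 ± 0.32, adjusted p = 0.0277). Of 9 markers of Schwann cells and nerve roots, Drp2 (-1.21 ± 0.18, adjusted p = 0.0277) and Pmp22 (-1.91 ± 0.32, adjusted p = 0.0485) were lower in C, with a list median of -1.21. The mean log2(FPKM + 1) of this list was 3.93 to 4.59 in C and 4.98 to 5.90 in E, with no overlap. Its sums, which include Mbp, a gene that oligodendrocytes also express, overlapped (2081 to 2164 FPKM in C and 1860 to 2522 FPKM in E). The 7 meningeal fibroblast markers had a median of -1.36 with 0 past the test, and summed to 46.6 to 109 FPKM in C and 140 to 286 FPKM in E. The oligodendrocyte markers were on the other side, with 0 of 8 past the test, a median of 0.46 and sums of 4839 to 5250 FPKM in C and 3198 to 4159 FPKM in E. In the sums of the last 2 lists the groups did not overlap. None of the markers of these 3 cell types was at 0 in any library, and the part of these cells in the members' values was not tested. The Hox score was also fitted as a covariate in C against E. Over the planned settings with all mice kept, that fit among them, the members' median was 0.30 to 0.50. The scores of C and E did not overlap, so the fit cannot tell position from group.

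**Figure D4:**
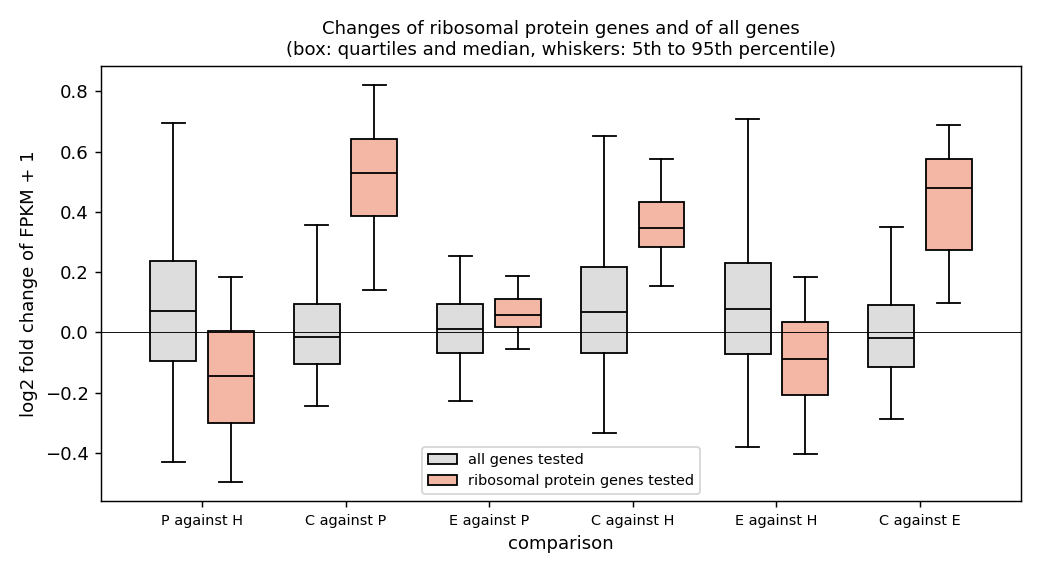
Distribution of log2 fold changes of FPKM + 1 in 6 comparisons for all 18119 genes tested (grey) and the 78 tested members (orange), as medians, quartiles and 5th to 95th percentiles. The orange boxes lie above the grey ones in the 3 comparisons with group C as the first group and below in P against H and E against H, and no member passed in any comparison.

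Against healthy mice, the carbon dot mice (C against H) had 0 members past the test in limma (8.31% of all genes), with a smallest adjusted p of 0.0656. At an unadjusted p under 0.05 there were 17 higher and 1 lower, against 25.8% of all genes. 77 members had a positive value and 1 a negative one, with a median of 0.35 against 0.07 for all genes. The largest were Rpl39 (0.62 ± 0.29, adjusted p = 0.21), Rps27l (0.59 ± 0.19, adjusted p = 0.0802) and Rpl10a, a protein of the L1 stalk at the exit site of the tRNA (0.58 ± 0.18, adjusted p = 0.0656). Rpl10a was at 30.3, 39.0 and 46.6 FPKM in the healthy mice and 62.9, 45.8 and 65.6 FPKM in C79, C84 and C85, so that C84 lay just below H4. Rps2 and Rps4x were the 2 members above every healthy mouse in all carbon dot mice (22.7% of all genes), and Rpl3l the 1 below them (8.63% of all genes). For Rps4x the margin was very narrow, with 153.1 FPKM in C84 against 152.8 FPKM in H4. The smallest were Rpl3l (-1.45 ± 0.59, adjusted p = 0.156), Rpl13a (0.08 ± 0.11) and Rps15a (0.13 ± 0.14). limma-voom called 3 members, Rpl10 (0.58), Rpl10a (0.59) and Rps4x (0.47). Without C84 there were 6 calls and without H4 there were 4, as given with the alternatives. In the E mice against healthy mice (E against H) 0 members passed in either tool, where limma called 13.2% of all genes. 1 was higher at an unadjusted p under 0.05, against 29.7% of all genes, and the median was -0.09 against 0.08 for all genes. Its sign turned with the setting: it was 0.07 without H4 or with the caudal Hox score as a covariate, and -0.33 without H1. Rpl7l1 alone lay above every healthy mouse in all E mice (24.9% of all genes), and 0 members lay below them (7.93% of all genes). Rpl10 (0.34 ± 0.18), Rpl10a (0.26 ± 0.18) and Rps4x (0.22 ± 0.14) were highest, and Rpl3l (-1.26 ± 0.59) and Rpl36 (-0.53 ± 0.28) were among the 3 lowest.

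Since the members differed together between mice of a group, an added fit took the median level of the tested members in each library as a covariate. It was chosen after the values were seen, and it asks which members departed from the others. In P against H 9 members passed in this limma fit, where 17.5% of all genes did. Rpl10 (0.44 ± 0.09, adjusted p = 0.00951), Rps4x (0.36 ± 0.08, adjusted p = 0.0144), Rpl5 (0.37 ± 0.08), Rpl10a (0.33 ± 0.08), Rpl32 (0.26 ± 0.06) and Rps12 (0.29 ± 0.08) were higher for the level of the family. Rpl36 (-0.51 ± 0.08, adjusted p = 0.00388), Rpl38 (-0.27 ± 0.07), which is needed for the translation of Hox mRNAs in the embryo, and Rpl3l (-1.64 ± 0.49) were lower. In E against H 8 passed (15.4% of all genes), again with Rpl10 and Rpl10a highest (0.48 and 0.40) and Rpl36 the lower one (-0.29). In C against H Rpl10a passed (0.33 ± 0.08, 5.65% of all genes). In C against P, E against P and C against E 0 members passed, and 0.0% of all genes. These calls depended on single mice. Without H1 0 members passed in each of the 3 comparisons with H. In P against H 3 passed without H2, 4 without P66 and 5 without P67, and Rpl3l was lost without any of 5 of the 6 mice. In E against H 2 passed without H2, 5 without H4, 4 without E77 and 2 without E90, and Rpl32, Rps12 and Rpl7 were each lost without any of the 6 mice. The same held for Rpl10a in C against H. For Rpl10, Rps4x and Rpl36 in P against H and for Rpl10 and Rpl10a in E against H, H1 was the only library whose removal ended the call.

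The paralogs did not share a pattern. Rpl3l (chr17:24727820-24736143, ENSMUSG00000002500) was at 12.98 FPKM in H1, 1.53 FPKM in H2 and 0.739 FPKM in H4, and between 0.297 and 0.979 FPKM in the 9 ALS model mice. It made up 9.56% of the sum of Rpl3l and Rpl3 in H1, 1.15% in H2 and 0.203 to 0.675% in the other libraries. The skeletal muscle markers moved with it. Their score, the mean log2(FPKM + 1) of 10 genes, was 7.61 in H1, 4.33 in H2, 2.13 in H4 and 3.81 in P74, with 0.887 to 2.60 in the other 8 libraries. Their sum was 121 to 2545 FPKM in H, 46.7 to 243 in P, 59.5 to 82.9 in C and 49.1 to 87.0 in E, with Myh2 and Myh4 at 0 in at least 1 library. The part of muscle RNA in the values of Rpl3l was not tested. Its fold against H depended on H1 and H4: without H4 it passed in P against H at -1.89 (adjusted p = 0.0422). Its parent Rpl3 was at 123, 132 and 155 FPKM in the healthy and 137, 153 and 140 FPKM in the saline mice (0.07 ± 0.11).

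Rps27l, a paralog of Rps27 known as a p53 target, was at 9.13, 11.3 and 13.3 FPKM in H, 15.1, 12.5 and 10.5 in P, 18.02, 12.8 and 22.1 in C and 13.03, 11.1 and 10.3 in E. It followed the family less closely than Rps27 (0.865 against 0.996) and made up 29.2 to 40.9% of the pair, with the highest share in P66. Rpl22l1 made up 5.79 to 8.92% of its pair with Rpl22, a protein that binds RNA and is dispensable for translation. Rpl22l1 was at 2.13 to 4.66 FPKM and Rpl22 at 31.7 to 47.5 FPKM, and both had their highest value in C85. Rpl7l1 made up 11.7 to 16.4% of its pair with Rpl7, lowest in C85 and C79, where Rpl7 was high at 128 and 121 FPKM. Rpl39l made up at most 1.96% of its pair with Rpl39.

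The members with the pyrimidine run were close to those without it. The 24 tested members with a run had a median correlation of 0.973 with the family and a median of 0.56 in C against P, and the 35 without a run had 0.953 and 0.48. In P against H both medians were -0.13. The members are short genes, with a median exon length of 1781 bases against 3931 for the genes tested, and a GC content of 51.7% against 49.8%. Across 77 members (Rpl3l left out), the log2 fold change in C against P had a correlation of -0.31 with exon length and 0.29 with GC content. In P against H these were 0.31 and -0.35. The share of coding 50-base stretches found in other genes had -0.03 and 0.02. Genes are not independent replicates, and these values are descriptions.

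Genes that act with the ribosome were read from lists of the pathway. Of the 7 stalk and fusion-encoded proteins 6 were tested. Fau, which encodes Rps30 fused to a ubiquitin-like protein, and the stalk proteins Rplp1 and Rplp2 followed the family, at correlations of 0.993, 0.975 and 0.985. Rplp0, the base of the stalk, did not (0.319): it was at 129, 117 and 132 FPKM in the healthy mice and at 141 to 199 FPKM in all ALS model mice. It was higher in C against H (0.58 ± 0.13, adjusted p = 0.0189) and in E against H (0.51 ± 0.13, adjusted p = 0.0245), and missed the threshold in P against H (0.40, adjusted p = 0.0563). The scaffold protein Rack1 was higher in C against H (0.47 ± 0.12, adjusted p = 0.0307). The background was 8.31% of all genes in C against H and 13.2% in E against H.

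Of 18 elongation and other genes with TOP mRNAs, 2 were higher in P against H, no larger a share than the 15.5% of all genes that passed there. Pabpc1, the poly(A)-binding protein, was at 23.7, 20.2 and 23.3 FPKM in H1, H2 and H4 and at 61.6, 47.4 and 36.3 FPKM in P66, P67 and P74 (1.05 ± 0.17, adjusted p = 0.00276). Eef1a1, which delivers tRNA to the ribosome, was at 583, 583 and 712 FPKM against 1146, 1070 and 894 FPKM (0.73 ± 0.13, adjusted p = 0.00464). Neither pair of groups overlapped, and both genes also passed in C against H and E against H. Neither followed the members over libraries (-0.07 and 0.09), whereas Eef1b2, an exchange factor of elongation, and the TOP transcript Gas5 did (0.982 and 0.955). In C against P 0 of the 18 passed, and their median was 0.12.

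**Figure D5:**
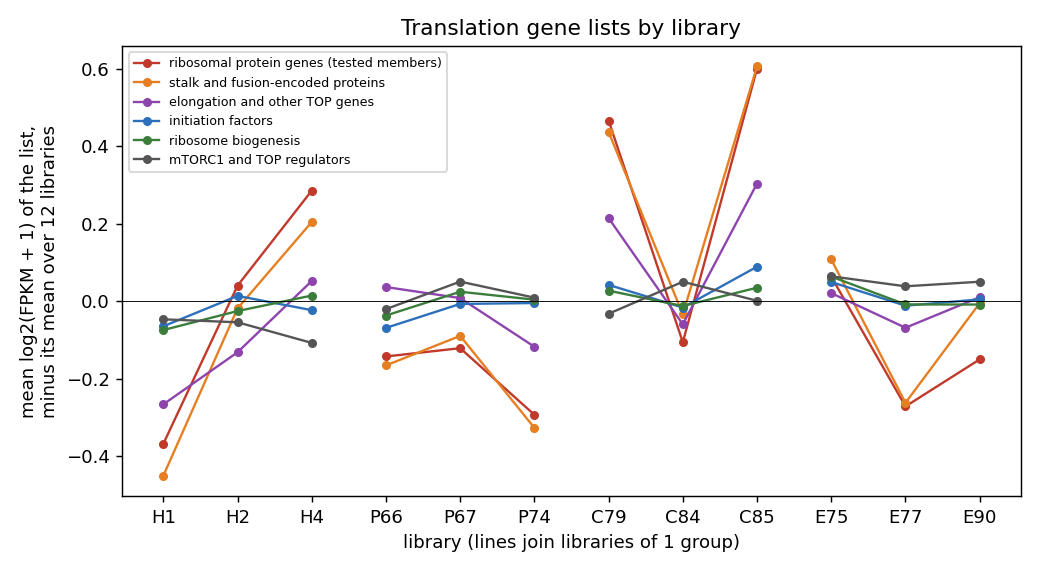
Mean log2(FPKM + 1) of 6 gene lists in each library, minus the mean of the list over 12 libraries, with lines joining the libraries of a group. The tested ribosomal protein genes (red) and the stalk and fusion-encoded proteins (orange) spread widely within H and C, the TOP genes (purple) less, and initiation, biogenesis and mTORC1 genes stay near 0.

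The lists upstream of the ribosome varied little between mice. Their counts stand against 15.5% of all genes past the test in P against H, 8.31% in C against H and 13.2% in E against H. Of 28 initiation factors, Eif5b (0.35 ± 0.07), Eif4a1 (0.51 ± 0.11) and Eif3l (0.32 ± 0.08) rose and Eif2b4 (-0.41 ± 0.08) fell in P against H, a share near that of all genes, and 0 passed in C against P (median 0.03). Of 37 ribosome biogenesis factors only Ltv1, an export factor of the small subunit, rose in P against H (0.34 ± 0.10, adjusted p = 0.0478), and 0 passed in C against P (median -0.02). Of 19 mTORC1 and TOP regulators only Myc, a transcription factor that drives ribosome production, passed, and it was higher in P, C and E against H (1.14, 1.09 and 0.99). Of 9 tested genes of ribosome quality control, Gtpbp2 (0.24 ± 0.07) and Ankzf1 (0.25 ± 0.08) rose in P against H, in a list too short to set against that share. Of 14 p53 targets 5 rose in P against H, led by Fas (0.99 ± 0.18, adjusted p = 0.00567), Pmaip1 (0.74 ± 0.16) and Mdm2, the inhibitor of p53 to which Rpl5 and Rpl11 bind (0.49 ± 0.11). 3 rose in C against H and 5 in E against H. Whether this list stands apart from other genes was not tested.

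Cell type markers moved with the same comparisons. Beside the calls against H, 12 of 13 microglial markers were higher in P against H, and their sum was 158 to 214 FPKM in H, 562 to 1230 in P, 731 to 955 in C and 530 to 873 in E. Of 6 astrocyte markers 5 were higher in P against H, 3 in C against H and 4 in E against H, with sums of 681 to 792 FPKM in H and 1488 to 2816 FPKM over the ALS model mice. Of 11 neuronal markers 7, 3 and 4 were lower in P, C and E against H, and their sum was 1595 to 2095 FPKM in H, 859 to 1396 in P, 1145 to 1281 in C and 1166 to 1212 in E. Of 9 motor neuron markers 3, 1 and 3 were lower. Of 5 erythroid markers 3, 1 and 5 were lower, with sums of 402 to 2577 FPKM in H, 128 to 307 in P, 205 to 388 in C and 107 to 266 in E. The 7 meningeal markers had 2, 2 and 7 higher members, and summed to 8.48 to 28.7 FPKM in H, 44.4 to 123 in P, 46.6 to 109 in C and 140 to 286 in E. Of the 9 Schwann cell markers 3, 1 and 7 were higher, and Mbp, which oligodendrocytes also make, was lower in E against H (-0.61 ± 0.15). No marker of these lists was at 0 in any library. The part of these cells in the calls and in the members' values against H was not tested.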

How the data were processed

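The authors deposited FPKM values, 1 table per group. No unit is named in them; the values fit FPKM, since with the exon length in GENCODE M21 (GRCm38) 95.2 to 95.7% of low values (at most 50 multiples) came within 0.02 of whole reads. The submitters' processing notes name featureCounts, HISAT2, cutadapt and GRCm38. Versions and the strand setting were not found in the sources read, so overlapping genes cannot be told apart. Of 79 members, 27 overlap another gene (small RNA genes left out), and 23 overlap one on the other strand. Rpl13, Rpl13a, Rpl19 and Rpl24 overlap one on the same strand only. Symbols and coordinates are those of GENCODE M21, which matched 33829 of 33906 identifiers, and start sites those of RefSeq (GRCm38.p6).

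limma 3.58.1 (R 4.3.3) was applied to log2(FPKM + 1), with 1 mean per group over all 12 libraries, trended robust moderation and two-sided p-values adjusted by Benjamini-Hochberg over 18119 genes. These had, in 3 or more libraries, the CPM that 10 reads give in the median library, and at least 15 reads in all. No count test was run on FPKM; limma-voom on the worked-out reads, whose totals exceed the scaling totals for an unknown reason, was an alternative. The test was checked on simulated reads drawn for each gene on its own, so that check does not cover genes that move together. Alternatives were a pseudocount of 0.1, filters, median-ratio scaling, length and GC trends removed (mgcv 1.9.3), the caudal Hox score, the 2 groups alone, and each replicate left out. A median 95% interval reached 0.25 to either side over all genes.

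The members and lists were chosen with earlier results of these data known. Named members are those past the threshold, paralogs with parents, the 6 highest and 3 lowest by mean FPKM, the 3 largest and 3 smallest changes per comparison, the 4 of lowest correlation with the others, and Rpl5, Rpl11, Rps6, Rps19, Rps3, Rps27a and Rpsa. Rps27, Rpl29, and members called in an alternative were named after their values were seen. Of the other lists, up to 3 genes per list and comparison that passed were named; Fau, Rplp1, Rplp2, Eef1b2 and Gas5 were named after their values were seen. Not every gene taken by this rule is reported here.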

Additional observations from a re-analysis of the deposited data

How the results depend on the processing

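No paired analysis was possible because no replicate number is shared between the groups. The number of members past the threshold was 0 in every comparison and 0 under every planned setting in C against P, E against P and C against E. In P against H it was 1 with the caudal Hox covariate (Rpl3l) and 0 to 2 with a replicate left out. In C against H it was 3 with limma-voom, 1 with the caudal covariate (Rpl10) and 0 to 6 with a replicate left out. Without C84 the 6 were Rpl10a, Rpl5, Rpl7, Rps2, Rps27l and Rps4x, and without H4 the 4 were Rpl10, Rpl10a, Rps4x and Rpl3l. In E against H it was 0 to 1 with a replicate left out (Rpl3l without H4). With the family covariate, added after seeing the data, it was 9 in P against H, 8 in E against H and 1 in C against H, and with a replicate left out from that fit 0 to 12, 0 to 7 and 0. The cause of these shifts was not tested.

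The median log2 fold change with a replicate left out was -0.36 to 0.02 in P against H, 0.38 to 0.76 in C against P, -0.03 to 0.13 in E against P, 0.16 to 0.59 in C against H, -0.33 to 0.07 in E against H and 0.33 to 0.71 in C against E. Under the other planned settings it was -0.26 to -0.06, 0.45 to 0.56, 0.04 to 0.13, 0.22 to 0.36, -0.21 to 0.07 and 0.30 to 0.50. Of the values of named members under the alternatives, 732 kept their side of the threshold and direction, 36 newly passed it, and 41 changed sign without passing. Part of the 36 came from the family covariate fit, and members that passed in that fit had been added to those named. No named member had passed at first, so no call could be lost or reversed. Each group has 3 mice, and an exact permutation test of 3 against 3 cannot give a p below 0.1.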

Other observations

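Of the 200 genes whose level over the 12 libraries correlated most with the mean member (at least 0.893), 59 were members, 24 were annotated pseudogenes and 6 were mitochondrial ribosomal proteins. After Fau (0.993), the closest non-members included the processed pseudogene Gm9794 (0.986), Rplp2 (0.985), Eef1b2 (0.982), the tRNA methyltransferase subunit Trmt112 (0.977) and the prefoldin subunit Pfdn5 (0.975). The non-members among the 200 were short, with a median exon length of 1302 bases. These genes were chosen after their values were seen, and the correlations are descriptions over 12 libraries that share 4 groups and a library scaling.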
